A study of Mus musculus with 18 samples.

Results

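The genes described here are the Rab GTPase family as it was measured in MPC3 cells, a mouse prostate cancer cell line. A gene belonged to the family if its mouse symbol was Rab followed by digits, with a trailing letter, or a letter and a digit, allowed and no other suffix. This gave 59 genes in the deposited count table, and 51 of them were also among the 15386 genes of the deposited table of CPM (counts scaled to a common library size). The other 8 (Rab25, Rab26, Rab33a, Rab38, Rab39, Rab3c, Rab44 and Rab9b) had at most 71 counts summed over all libraries, below the smallest sum in the CPM table, which was 90. Just inside that limit were Rab40b with 104 counts, Rab37 with 109 and Rab42 with 136, which were too low for the count test. The remaining 48 genes were tested together with 14309 genes in all.

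Rab proteins are small GTPases that act as switches of membrane traffic. Exchange factors load a Rab with GTP on its membrane, the loaded form binds effectors such as tethers and motors, and GTPase-activating proteins switch it off by promoting hydrolysis. A lipid tail added by a geranylgeranyl transferase with a Rab escort protein holds the Rab in the membrane, and GDP dissociation inhibitors draw it out again, so that each member marks a step between the endoplasmic reticulum, Golgi, endosomes, lysosomes and the cell surface. In tumour cells Rabs are known for the recycling of integrins and growth factor receptors and for the release of vesicles.

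The study compared cells in which Rnf185, which encodes a ubiquitin ligase of the endoplasmic reticulum membrane, was knocked down with control cells. Polyadenylated RNA was sequenced from 18 libraries in 3 groups of 6: control cells (pLKO in the titles) and cells with the short hairpin shRNF185.1 or shRNF185.3, each aimed at Rnf185 messenger RNA. All groups are the same line, MPC3, with no other allele, drug or time point in the labels, and a hairpin lowers a transcript without deleting its gene. The labels put 2 libraries of every group in each of 3 batches. They do not say whether libraries came from separate cultures, so p-values measure the spread between these libraries, which may be technical.

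Libraries held between 22027395 and 43379662 counts, so that a floor of 3 counts lay between 0.0692 and 0.136 CPM, for counting error only. Rnf185 was at 33.6 to 38.4 CPM in control, 5.21 to 6.80 CPM with shRNF185.1 and 5.19 to 6.72 CPM with shRNF185.3. Every library thus followed its label as control or knockdown. The hairpin groups overlapped, so Rnf185 cannot check which hairpin a library carried. Of 7 prostate epithelial and luminal markers, 4 had a control median of at least 1 CPM, with Krt8, Krt18 and Cdh1 among them, while Epcam and Pbsn were at or near 0. These 7 summed to between 1480 and 1800 CPM in control, 940 to 1220 CPM with shRNF185.1 and 999 to 1070 CPM with shRNF185.3, and 3 fibroblast markers summed to 255 to 287, 285 to 307 and 351 to 402 CPM. Mesenchymal markers summed to 4690 to 6570, 5510 to 6500 and 6190 to 7700 CPM, led by Vim and Fn1. Basal epithelial markers summed to at most 38.8 CPM with Krt5 at 0 in the control median, and leukocyte markers to at most 5.08 CPM. Melanocyte and endothelial markers were below 1 CPM in sum in every library, and the part of these shifts in the Rab results was not tested. In bulk RNA, fewer cells that express a gene and less RNA per cell cannot be told apart.

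Promoter sequences are shown for 4 members whose values follow: Rab3b, which was higher with both hairpins, Rab31, which was lower with both, Rab21, which was lower with shRNF185.1, and Rab27a, which was lower with shRNF185.3. Each is the 250 bases before the RefSeq start on GRCm38.p6, written 5′ to 3′ on the strand of the gene. Capitals mark matches on either strand to any of 5 short motifs that are common near start sites, whose letters are given after the sequences.
Rab3b (chr4:108878820-108879069, plus strand): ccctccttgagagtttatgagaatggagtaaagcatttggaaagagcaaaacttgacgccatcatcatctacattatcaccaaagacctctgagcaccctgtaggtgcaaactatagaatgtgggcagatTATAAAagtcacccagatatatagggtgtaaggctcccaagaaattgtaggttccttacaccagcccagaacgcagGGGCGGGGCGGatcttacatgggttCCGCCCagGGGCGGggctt
Rab31 (chr17:65772753-65773002, minus strand): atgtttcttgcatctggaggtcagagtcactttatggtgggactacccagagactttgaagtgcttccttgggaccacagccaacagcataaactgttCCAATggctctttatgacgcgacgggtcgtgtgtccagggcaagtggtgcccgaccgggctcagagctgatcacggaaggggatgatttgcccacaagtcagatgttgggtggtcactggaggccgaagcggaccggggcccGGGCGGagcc
Rab21 (chr10:115315592-115315841, minus strand): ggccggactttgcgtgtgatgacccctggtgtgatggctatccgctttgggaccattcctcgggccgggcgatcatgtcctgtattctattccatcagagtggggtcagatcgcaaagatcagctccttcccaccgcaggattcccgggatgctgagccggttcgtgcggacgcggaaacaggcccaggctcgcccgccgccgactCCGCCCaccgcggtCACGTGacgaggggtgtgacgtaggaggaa
Rab27a (chr9:73044560-73044809, plus strand): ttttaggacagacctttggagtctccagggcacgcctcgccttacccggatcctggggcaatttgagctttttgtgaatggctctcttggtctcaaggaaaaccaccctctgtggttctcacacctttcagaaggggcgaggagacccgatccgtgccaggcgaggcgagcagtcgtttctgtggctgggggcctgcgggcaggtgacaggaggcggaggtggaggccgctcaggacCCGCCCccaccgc
The Rab3b promoter, at 48.8% G and C, had 4 GC boxes within 44 bases of the start, of which a pair overlap by a base, and a TATA box 120 bases before it. Rab31 (57.6% G and C) had a GC box 10 bases and a CCAAT box 152 bases before the start, Rab21 (63.2%) had a GC box at 44 and an E-box at 30 bases, and Rab27a (62.0%) had a GC box at 13 bases in the promoter printed, which is the first of its RefSeq starts. Over the 55 RefSeq promoters of the 43 members that had one, a GC box, searched as GGGCGG, stood in 67.3%, against 32.7% of all 32851 mouse promoters of that length. The median G and C of all promoters was 52.4%. All promoters were not limited to genes of the CPM table, as the members were, so the shares are not matched for expression or for G and C. For the E-box, searched as CACGTG and the same on both strands, the shares were 9.09% of the members' promoters and 6.02% of all promoters. The CCAAT box, named for its letters, stood in 38.2% of the members' promoters and in 33.8% of all. For the TATA box, searched as TATAAA on both strands, the shares were 7.27% and 12.4%. The AP-1 site, searched as TGACTCA on both strands and found in none of the sequences printed, stood in 3.64% of the members' promoters and in 4.46% of all. No printed matches of different motifs overlapped. A match says only that these letters are in the window.

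In the GENCODE M21 annotation of GRCm38, Rab3b (ENSMUSG00000003411) spans chromosome 4 from 108879063 to 108943324, plus strand, and Rab27a (ENSMUSG00000032202) spans chromosome 9 from 73044854 to 73097629, plus strand. Its paralog Rab27b (ENSMUSG00000024511) lies on chromosome 18 from 69979131 to 70141605, minus strand, and Rab18 (ENSMUSG00000073639) on the same chromosome from 6733905 to 6794429, plus strand. Rab21 (ENSMUSG00000020132) lies on chromosome 10 from 115287084 to 115315594, minus strand, and Rab31 (ENSMUSG00000056515) on chromosome 17 from 65651729 to 65772752, minus strand. Rab22a (ENSMUSG00000027519) lies on chromosome 2 from 173659760 to 173707343 and Rab2a (ENSMUSG00000047187) on chromosome 4 from 8535644 to 8607778, both on the plus strand. Values are per gene, so isoforms were not told apart.

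The level of each member in control cells was compared per length of gene, as deposited CPM per kilobase of exon. Rab7, which drives fusion of late endosomes with lysosomes, was highest, at 105 to 118 with a median of 109 CPM per kilobase over the 6 control libraries. Rab1b, which acts between the endoplasmic reticulum and the Golgi, followed at 97.2 to 113 (median 107), and its range overlapped that of Rab7. Rab5c, of early endosome fusion, was at 70.8 to 86.2 and Rab2a, of endoplasmic reticulum to Golgi transport, at 73.8 to 89.7 (median 79.1), so these neighbours overlapped each other but lay below Rab1b. Rab1a, the paralog of Rab1b, came next at 57.3 to 67.0 (median 61.8), below every Rab2a value.

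The members spanned a wide range of levels. The median of 27 members was at least 10 CPM per kilobase, that of 14 was between 1 and 10, and that of 10 was under 1. Over the 51 members the median was 10.6, against 4.51 CPM per kilobase over 15327 genes of the CPM table with a length. Low members included Rab3b at 1.92 and Rab27b at 1.77, which serve regulated secretion, Rab27a at 0.845, Rab36 at 0.752, Rab17, an epithelial Rab, at 0.377, Rab39b, best known from neurons, at 0.0887 and Rab37 at 0.0418 CPM per kilobase. The 5 highest members held 32.2% to 34.3% of the family's summed CPM in the control libraries.

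**Figure D1:**
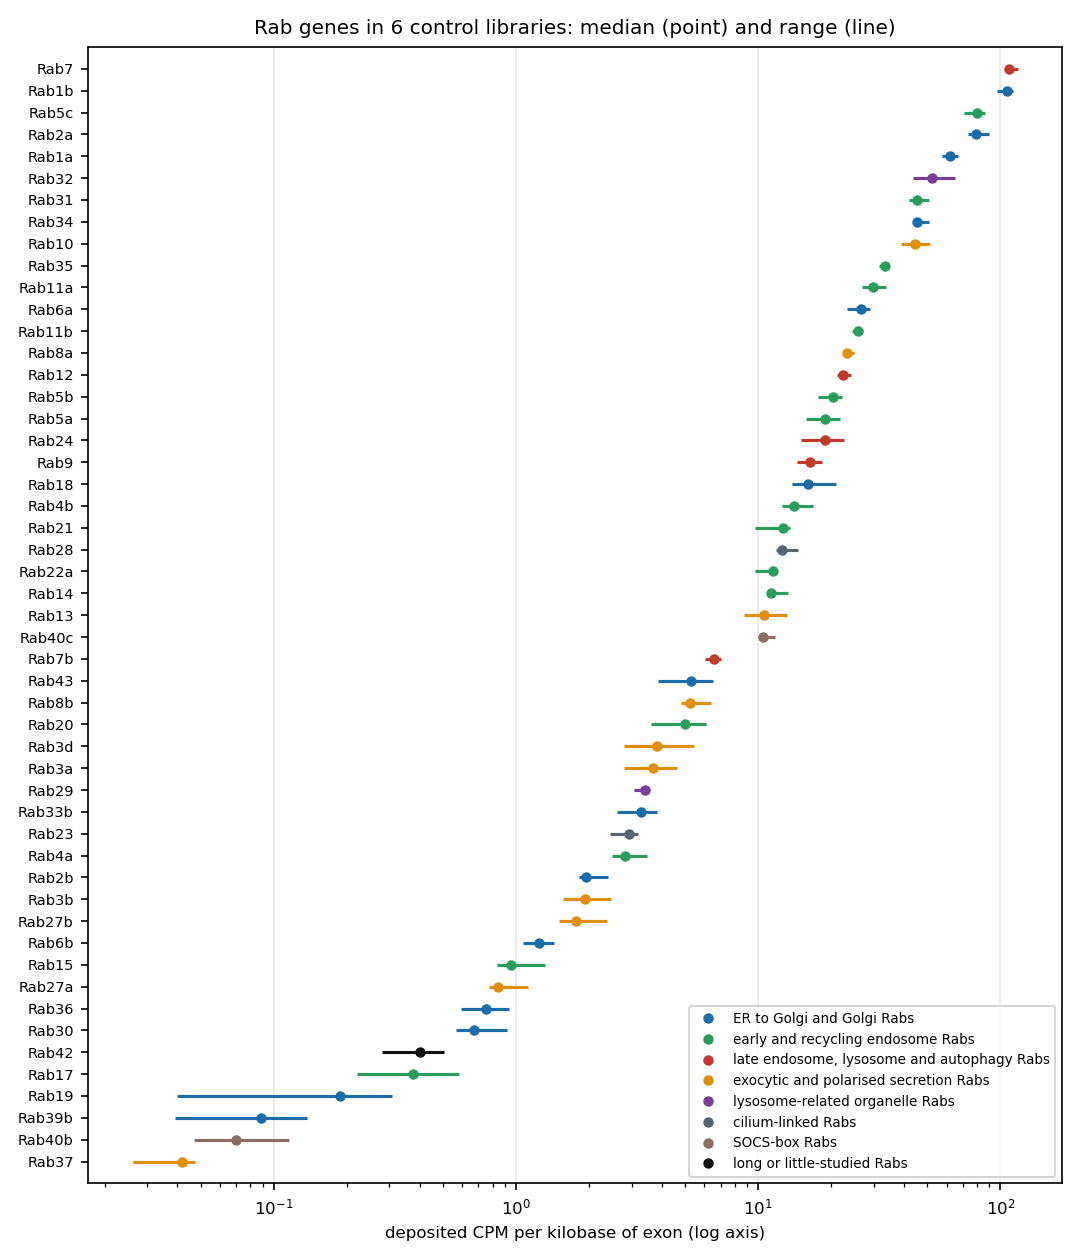
Level of the 51 Rab genes in the 6 control libraries, as CPM per kilobase of exon on a log axis, with the median as a point, the range as a line and the colour giving the role. Rab7 and Rab1b lead at medians of 109 and 107, and Rab37 is lowest at 0.0418.

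The summed level of the family moved little between groups. The members added up to 3168, 3345 and 3486 CPM (lowest, median and highest) in control, 3175, 3229 and 3301 CPM with shRNF185.1 and 3168, 3213 and 3294 CPM with shRNF185.3. These ranges overlapped, and the 5 highest members held a median of 33.4%, 33.3% and 33.2% of the sum in the 3 groups. The sum is a description and was not tested.

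Single members changed in both directions with each hairpin. A gene was called at a Benjamini-Hochberg adjusted p under 0.05 over all genes tested, from the quasi-likelihood F test of edgeR. With shRNF185.1, 8 of 48 Rabs were higher than control (16.7%, where 14.6% of all genes tested were called higher) and 8 were lower (16.7%, against 14.3% of all genes). With shRNF185.3, 6 were higher (12.5%, against 14.2%) and 8 lower (16.7%, against 13.1%). These shares lie near those of all genes, and the median log2 fold change of the 48 was 0.05 with shRNF185.1 and -0.01 with shRNF185.3, where that of all genes was -0.02 in both. With the mean of both hairpins against control, 10 were higher (20.8%, against 16.1%) and 13 lower (27.1%, against 16.8%), with a median of 0.03. These comparisons share the same control libraries. An offset for GC content and gene length, which moved the share of higher genes among all calls with shRNF185.3 from 51.8% to 36.7% and with the mean of both from 48.9% to 37.9%, gave 6 Rabs higher and 12 lower with shRNF185.3, and 10 and 14 with the mean of both.

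**Figure D2:**
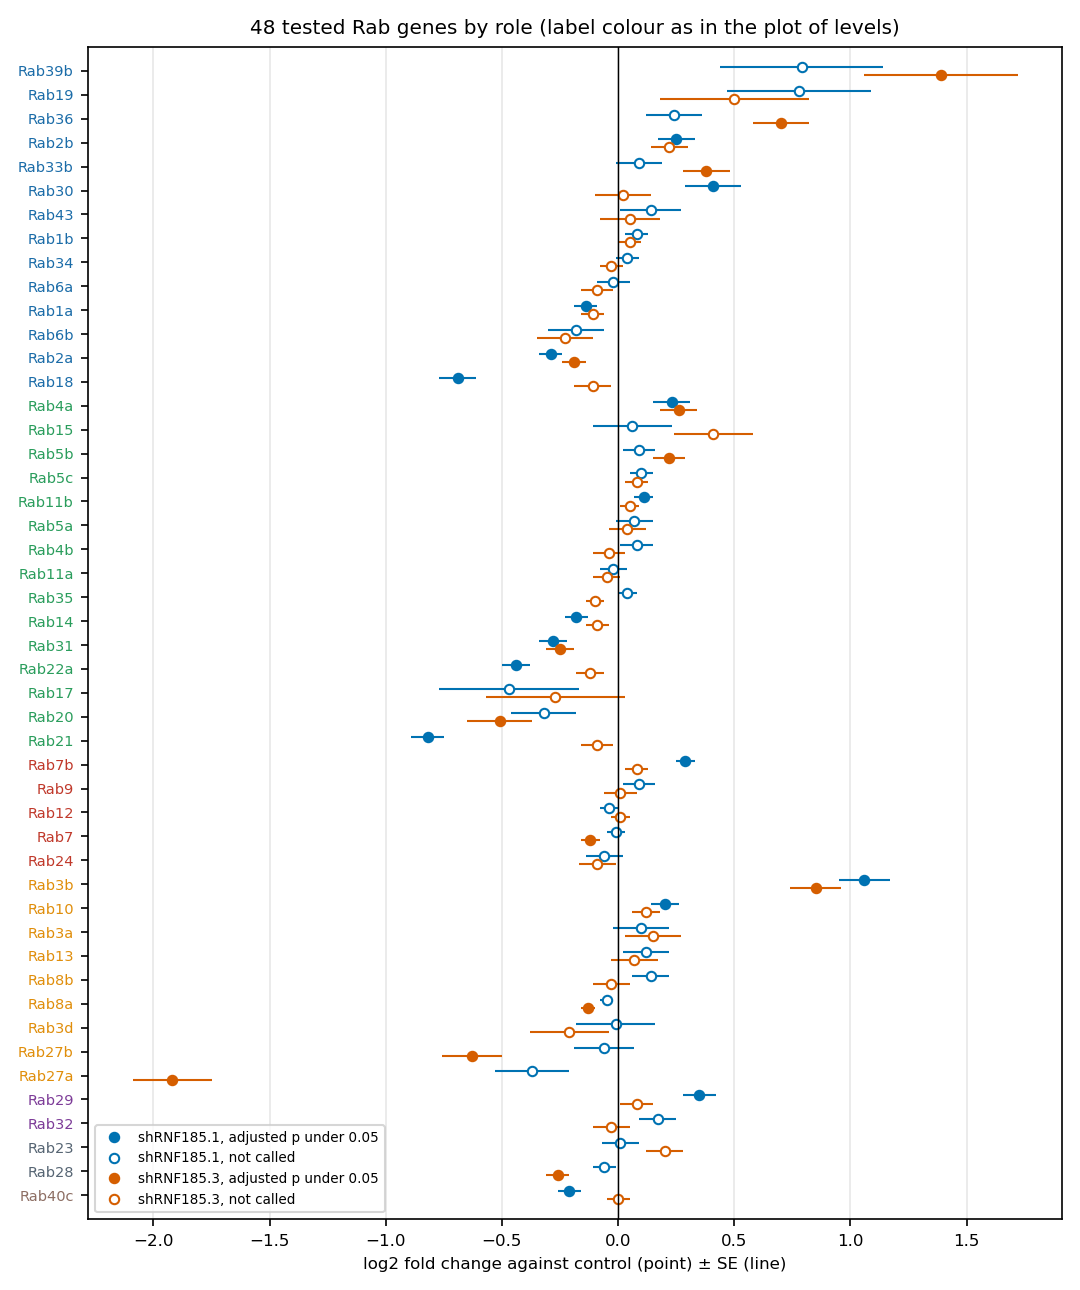
Log2 fold change against control, with its SE, for the 48 tested Rab genes with shRNF185.1 (blue) and shRNF185.3 (orange), ordered by role and filled where called by edgeR. Rab3b lies near 1 with both hairpins, while Rab27a reaches -1.92 with shRNF185.3 and Rab21 -0.82 with shRNF185.1.

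Among the 9 tested members of exocytosis and polarised secretion, 2 rose (Rab3b and Rab10) and 0 fell with shRNF185.1, and 1 rose (Rab3b) and 3 fell (Rab27a, Rab27b and Rab8a) with shRNF185.3. Among all genes tested, the higher calls made up 14.6% and 14.2% for the first and second of these hairpins and the lower calls 14.3% and 13.1%, and the median log2 fold change of these 9 was 0.10 and -0.03. Rab3b, which regulates the docking and release of secretory vesicles, was at 5.53, 6.77 and 8.66 CPM (lowest, median and highest) in control, 11.7, 14.8 and 15.5 CPM with shRNF185.1, and 10.5, 11.3 and 14.4 CPM with shRNF185.3. None of the 12 hairpin libraries was as low as any control. With shRNF185.1 Rab3b rose 2.09-fold, or by 1.06 on the log2 scale (edgeR SE 0.11, adjusted p 1.25e-06). The rise with shRNF185.3 was 1.80-fold, or 0.85 (SE 0.11, adjusted p 1.86e-05). Taken batch by batch, from 1 to 3, the shift with shRNF185.1 was 1.43, 0.68 and 1.09, and that with shRNF185.3 was 1.14, 0.69 and 0.71. All values within batches come from counts already adjusted for batch. Rab3b was not called between the hairpins (log2 difference -0.22, SE 0.11, adjusted p 0.235).

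Rab27a, which ties secretory vesicles and melanosomes to the cell cortex, had the largest fall in the family. It was at 3.02, 3.28 and 4.33 CPM in control, 1.58, 2.96 and 3.24 CPM with shRNF185.1 and 0.694, 0.959 and 1.12 CPM with shRNF185.3. Every shRNF185.3 library lay below every library of the other groups, whereas shRNF185.1 overlapped control. These values rest on 73 to 148 counts per control library and on 18 to 29 with shRNF185.3. With shRNF185.3 Rab27a kept 26.5% of its control level, a log2 fold change of -1.92 (SE 0.17, adjusted p 1.99e-07), which was -1.61, -1.69 and -2.22 in batches 1, 2 and 3. That of shRNF185.1 was -0.37 (SE 0.16) and missed the threshold (adjusted p 0.0861).

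Its paralog Rab27b, with a related role in vesicle docking and exosome release, went the same way with shRNF185.3. It was at 16.1, 18.9 and 25.4 CPM in control, 14.2, 18.9 and 22.8 CPM with shRNF185.1 and 10.9, 12.3 and 15.0 CPM with shRNF185.3. The shRNF185.3 libraries lay below all control libraries, and those of shRNF185.1 overlapped control. On the log2 scale Rab27b fell by 0.63 (SE 0.13, adjusted p 0.00128) with shRNF185.3, while the estimate for shRNF185.1 was -0.06 (adjusted p 0.761). Of the other exocytic members, Rab8a, which carries cargo to the plasma membrane and the cilium, fell by 0.13 (SE 0.03, adjusted p 0.00904) with shRNF185.3, and Rab10, of basolateral and insulin-regulated transport, rose by 0.20 (SE 0.06, adjusted p 0.0142) with shRNF185.1, or by 0.18, 0.43 and 0.01 in batches 1, 2 and 3. Rab3a, Rab3d, Rab8b and Rab13 were called with neither hairpin, with log2 fold changes between -0.21 and 0.15.

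**Figure D3:**
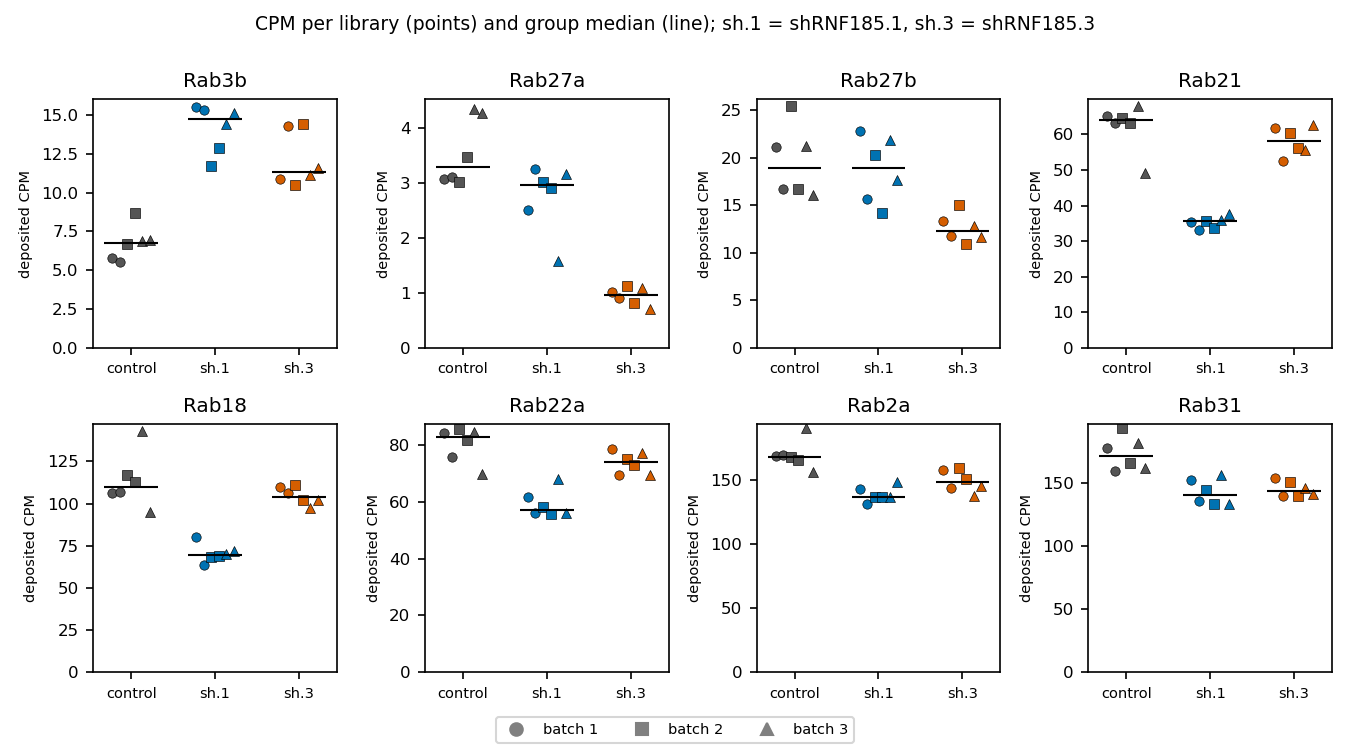
Deposited CPM of 8 Rab genes in each of the 18 libraries, on axes that start at 0, with the group median as a line and the batch as the point shape. Rab27a with shRNF185.3 (0.694 to 1.12) and Rab21 with shRNF185.1 (33.2 to 37.6) stand apart from control, and Rab3b is higher with both hairpins.

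Of 15 early and recycling endosome members, 2 rose (Rab4a and Rab11b) and 4 fell (Rab21, Rab22a, Rab31 and Rab14) with shRNF185.1, while 2 rose (Rab4a and Rab5b) and 2 fell (Rab31 and Rab20) with shRNF185.3. The shares of all genes were 14.6% higher and 14.3% lower, and 14.2% and 13.1%, and the median log2 fold change of the 15 was 0.04 and -0.05. Rab21, which binds integrins and moves them through early endosomes, was at 49.1, 64.0 and 68.1 CPM in control, 33.2, 35.6 and 37.6 CPM with shRNF185.1 and 52.6, 58.2 and 62.6 CPM with shRNF185.3. All 6 shRNF185.1 libraries lay below the lowest control library, which stood alone at 49.1 CPM, and all shRNF185.3 libraries lay within the control range. With shRNF185.1 it fell to 56.6% of control, by 0.82 on the log2 scale (SE 0.07, adjusted p 4.65e-08), and the 3 batches gave -0.90, -0.89 and -0.66. For shRNF185.3 the estimate was -0.09 (SE 0.07, adjusted p 0.315).

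Rab22a, a relative of Rab5 that sorts recycling cargo, was at 69.8, 82.8 and 85.7 CPM in control, 55.8, 57.0 and 68.1 CPM with shRNF185.1 and 69.5, 73.9 and 78.5 CPM with shRNF185.3. Its per-library values are given although they fall outside the rule for named genes, a choice made after they were seen. The shRNF185.1 libraries lay below both other groups, and the other groups overlapped. Rab22a fell by 0.44 on the log2 scale with shRNF185.1 (SE 0.06, adjusted p 2.54e-05), and its estimate for shRNF185.3 was -0.12 (adjusted p 0.156).

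Rab31, close in sequence to Rab22a and active between the trans-Golgi network and endosomes, fell with both hairpins. It was at 160, 172 and 194 CPM in control, 134, 140 and 157 CPM with shRNF185.1 and 140, 144 and 154 CPM with shRNF185.3, so all 12 hairpin libraries lay below the lowest control library. Rab31 fell by 0.28 on the log2 scale with shRNF185.1 (SE 0.06, adjusted p 0.000841). It fell by 0.25 under shRNF185.3 (SE 0.06, adjusted p 0.00218), and batch by batch the fold changes lay between -0.37 and -0.20. Rab4a, of rapid recycling, was at 4.38, 4.93 and 6.11 CPM in control, 5.31, 6.08 and 6.36 CPM with shRNF185.1 and 5.41, 6.14 and 6.44 CPM with shRNF185.3, and all groups overlapped. Its log2 fold changes, 0.23 (SE 0.08, adjusted p 0.0494) and 0.26 (SE 0.08, adjusted p 0.0286), were -0.09 and -0.05 within batch 2. When a single library was left out, the call held for shRNF185.1 in 4 of 18 fits and for shRNF185.3 in 12 of 18, at an adjusted p of up to 0.113 and 0.0689.

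The other calls on endosomal members were smaller or came with a single hairpin. Rab20, of phagosome maturation, fell by 0.51 (SE 0.14, adjusted p 0.0103) with shRNF185.3, and its values overlapped those of control. With shRNF185.1 Rab20 was at -0.32 (adjusted p 0.0844), and the difference between the hairpins was not called (-0.18, adjusted p 0.489). Rab14, between Golgi and endosomes, fell by 0.18 (SE 0.05, adjusted p 0.00962) with shRNF185.1, where all 6 libraries lay below control. Rab5b, a Rab5 isoform, rose by 0.22 (SE 0.07, adjusted p 0.0154) with shRNF185.3. Rab11b, of slow recycling, rose by 0.11 (SE 0.04, adjusted p 0.0368) with shRNF185.1, a call that held in 9 of 18 fits without a single library (adjusted p up to 0.0765). Rab5a, Rab5c, Rab11a, Rab4b, Rab15, Rab17 and Rab35 were called with neither hairpin. Of these Rab5c, among the highest members, was at 155, 175 and 189 CPM in control, 180, 183 and 204 CPM with shRNF185.1 and 171, 183 and 196 CPM with shRNF185.3 (log2 fold changes 0.10 and 0.08, adjusted p 0.184 and 0.255).

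Of 14 members of the endoplasmic reticulum to Golgi route and the Golgi, 2 rose (Rab2b and Rab30) and 3 fell (Rab18, Rab2a and Rab1a) with shRNF185.1, and 3 rose (Rab36, Rab39b and Rab33b) and 1 fell (Rab2a) with shRNF185.3. Of all genes 14.6% were higher and 14.3% lower with the former hairpin and 14.2% and 13.1% with the latter, and the median log2 fold change of the 14 was 0.09 and 0.04. Rab18, which acts at the endoplasmic reticulum and lipid droplets, was at 94.7, 110 and 143 CPM in control, 63.9, 69.6 and 79.9 CPM with shRNF185.1 and 97.3, 104 and 111 CPM with shRNF185.3. As for Rab21, the shRNF185.1 libraries lay below all others, and the shRNF185.3 libraries lay within the control range. Rab18 fell to 62.1% of control with shRNF185.1, a log2 fold change of -0.69 (SE 0.08, adjusted p 2.32e-06) that was -0.58, -0.74 and -0.72 in the 3 batches. With shRNF185.3 it was at -0.11 (adjusted p 0.287).

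Rab2a, of transport between the endoplasmic reticulum and the Golgi, fell with both hairpins. It was at 157, 169 and 191 CPM in control, 132, 137 and 149 CPM with shRNF185.1 and 138, 148 and 160 CPM with shRNF185.3. The shRNF185.1 libraries lay below control, and 4 of the 6 shRNF185.3 libraries did. It fell by 0.29 on the log2 scale with shRNF185.1 (SE 0.05, adjusted p 0.000195) and fell by 0.19 with shRNF185.3 (SE 0.05, adjusted p 0.00823), where the call was lost without batch 1 and without batch 3 (adjusted p up to 0.0774).

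The abundant partners Rab1a and Rab1b, which start the route to the Golgi, changed by little. Rab1a was at 218, 235 and 254 CPM in control, 200, 208 and 230 CPM with shRNF185.1 and 204, 219 and 229 CPM with shRNF185.3, with overlapping ranges. Its log2 fold changes were -0.14 (SE 0.05, adjusted p 0.0415) and -0.11 (SE 0.05, adjusted p 0.121), and the call with shRNF185.1 held in 8 of 18 fits without a single library (adjusted p up to 0.094). That call was also lost when any of the 3 batches was left out. Rab1b was at 221, 243 and 257 CPM in control, 242, 257 and 266 CPM with shRNF185.1 and 229, 253 and 271 CPM with shRNF185.3, and was not called (0.08 and 0.05, adjusted p 0.252 and 0.441).

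The members of this route that rose with shRNF185.3 were low in these cells. Rab36, a Golgi Rab related to Rab34, was at 3.67, 4.64 and 5.79 CPM in control, 4.26, 5.29 and 6.41 CPM with shRNF185.1 and 6.57, 7.36 and 8.81 CPM with shRNF185.3, where all 6 libraries lay above both other groups. Its log2 fold change was 0.70 (SE 0.12, adjusted p 0.000262) with shRNF185.3 and 0.24 (SE 0.12, adjusted p 0.154) with shRNF185.1. Rab39b was at 0.133, 0.302 and 0.467 CPM in control, 0.347, 0.549 and 0.777 CPM with shRNF185.1 and 0.374, 0.983 and 1.20 CPM with shRNF185.3, on 4 to 20, 9 to 23 and 9 to 31 counts per library. Its log2 fold change of 1.39 (SE 0.33, adjusted p 0.00427) with shRNF185.3 was 2.21, 0.85 and 0.62 within batches 1, 2 and 3. Without batch 1 this call was lost (adjusted p 0.149). With shRNF185.1 Rab39b was at 0.79 (adjusted p 0.0999), and the difference between the hairpins was not called (0.60, adjusted p 0.253). The per-library values of Rab36 and Rab39b were likewise chosen after they were seen.

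Rab33b, which links the Golgi to autophagy, rose by 0.38 (SE 0.10, adjusted p 0.00608) with shRNF185.3 and was at 0.09 (adjusted p 0.51) with shRNF185.1. Rab30, another Golgi Rab, rose by 0.41 (SE 0.12, adjusted p 0.0165) with shRNF185.1, with -0.08 within batch 3. Rab2b rose by 0.25 (SE 0.08, adjusted p 0.0307) with shRNF185.1, but held the call in 11 of 18 fits without a single library (adjusted p up to 0.078). With shRNF185.3 Rab2b was at 0.22 (adjusted p 0.0535), and the difference between the hairpins was -0.02 (adjusted p 0.913). Of the exonic bases of Rab2b, 59.31% lie opposite a gene on the other strand. Rab6a and Rab6b, of retrograde traffic to the Golgi, Rab19, Rab34 and Rab43 were called with neither hairpin. Rab19, at 0.296 CPM in control, was at a log2 fold change of 0.78 with shRNF185.1 (SE 0.31, adjusted p 0.0669) and 0.50 with the other hairpin (SE 0.32, adjusted p 0.261), and was called with neither in the test reported here.

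Of 5 members of late endosomes, lysosomes and autophagy, 1 rose (Rab7b) with shRNF185.1 and 1 fell (Rab7) with shRNF185.3, where 14.6% of all genes were higher and 13.1% lower, respectively. Rab7 was at 273, 285 and 307 CPM in control, 272, 287 and 304 CPM with shRNF185.1 and 257, 265 and 271 CPM with shRNF185.3. All 6 shRNF185.3 libraries lay just below control, and the fall of 0.12 (SE 0.04, adjusted p 0.0251) was no longer called without control replicate 1 or without shRNF185.3 replicate 6 (adjusted p up to 0.0644). This fall was also not called without batch 1 and without batch 3. Rab7b, which acts from late endosomes back to the trans-Golgi network, rose by 0.29 (SE 0.04, adjusted p 7.87e-05) with shRNF185.1, where all libraries lay above control, and was at 0.08 (adjusted p 0.205) with shRNF185.3. Rab9, Rab12 and Rab24 were called with neither hairpin, with log2 fold changes from -0.09 to 0.09.

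Among the remaining roles, Rab29, a binding partner of the kinase Lrrk2, rose by 0.35 (SE 0.07, adjusted p 0.000797) with shRNF185.1, with all 6 libraries above control. Rab32, a Rab of melanosomes and related organelles that was sixth in level per kilobase, was at 0.17 (adjusted p 0.115) and -0.03 (adjusted p 0.834). Rab28, linked to the cilium, fell by 0.26 (SE 0.05, adjusted p 0.000721) with shRNF185.3, where all libraries lay below control, and Rab23, a brake on hedgehog signalling, was called with neither hairpin. Rab40c, which carries a SOCS box and joins a ubiquitin ligase, fell by 0.21 (SE 0.05, adjusted p 0.00159) with shRNF185.1 and was at 0.00 (adjusted p 0.95) with shRNF185.3.

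The hairpins were then tested against each other, since they lowered Rnf185 to the same 16.2% of control. With shRNF185.3 against shRNF185.1, 5 of 48 Rabs were higher (10.4%, against 7.72% of all genes) and 7 were lower (14.6%, against 6.94% of all genes), with a median log2 difference of -0.04. Rab21 was 0.73 higher with shRNF185.3 (SE 0.07, adjusted p 5.13e-07) and Rab18 0.57 higher (SE 0.08, adjusted p 4.45e-05), each with all 6 shRNF185.3 libraries above all 6 of shRNF185.1. Rab22a (0.32, adjusted p 0.00125), Rab36 (0.46, adjusted p 0.0139, but up to 0.126 without batch 1 or batch 2) and Rab40c (0.22, adjusted p 0.00271) were also higher, again without overlap. Rab27a was -1.55 (SE 0.18, adjusted p 6.1e-06), at -1.51, -1.56 and -1.30 within batches 1, 2 and 3, and Rab27b was -0.57 (SE 0.13, adjusted p 0.00545), with 5 of 6 libraries below all of shRNF185.1. Rab27b lost this call without batch 1 and without batch 3, at an adjusted p of up to 0.0875.

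Smaller differences ran the same way as those of Rab27a. Rab7b was at -0.21 (adjusted p 0.00299), Rab28 at -0.20 (adjusted p 0.0105), Rab29 at -0.27 (adjusted p 0.0107), Rab35, of rapid recycling and cell division, at -0.14 (adjusted p 0.0139) and Rab30 at -0.38 (adjusted p 0.0417, held in 10 of 18 fits without a single library). In 36 of the 48 Rabs the difference between the hairpins was not called, which does not show that they act alike.

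**Figure D4:**
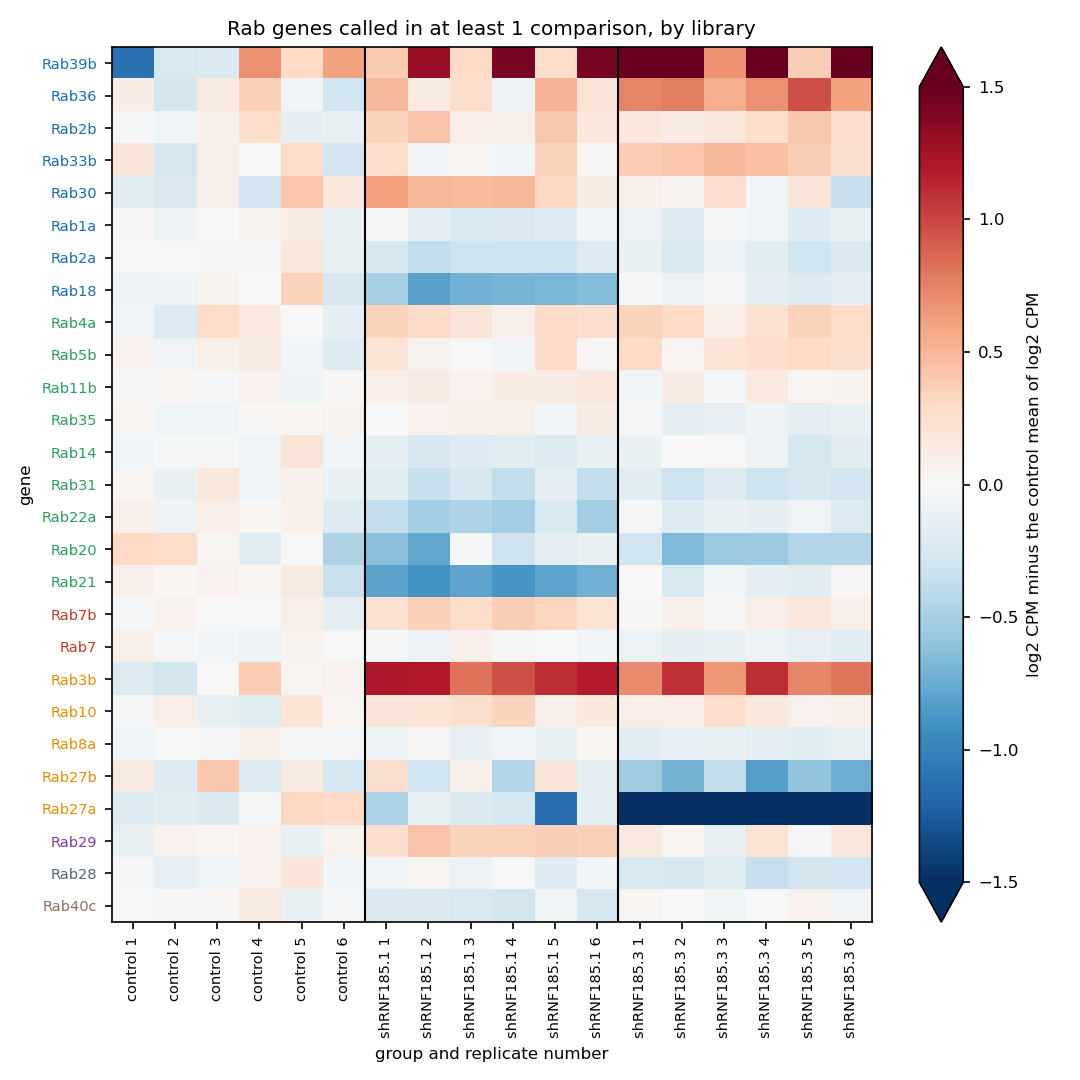
Log2 CPM minus the control mean for the 27 Rab genes called in at least 1 comparison, by library, with red above and blue below the control mean and colours capped at 1.5. Rab3b is red in all hairpin libraries, Rab21 and Rab18 are blue across the shRNF185.1 libraries, and Rab27a is deep blue across the shRNF185.3 libraries.

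Genes that act on Rabs were counted by role. Of 8 genes of prenylation, membrane escort and extraction, 1 was lower with shRNF185.1 (Chml), where 14.3% of all genes were lower, and 4 were lower with shRNF185.3 (Chml, Gdi2, Rabac1 and Rabggta), where 13.1% were, while Chm, another Rab escort protein, was higher with shRNF185.3. Chml, a Rab escort protein, was at 16.9, 20.2 and 28.5 CPM in control, 11.7, 13.5 and 15.8 CPM with shRNF185.1 and 11.5, 13.7 and 15.8 CPM with shRNF185.3, so both hairpin groups lay below control. Its log2 fold change was -0.63 with each hairpin (SE 0.12, adjusted p 0.000542 and 0.000588). The median log2 fold change of these 8 was -0.06 and -0.12.

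Of 33 tested exchange factors, 9 were higher and 1 was lower with shRNF185.1, and 5 were higher and 2 lower with shRNF185.3, with medians of 0.10 and 0.01. As shares, 27.3% and 15.2% were higher, against 14.6% and 14.2% of all genes, and 3.03% and 6.06% were lower, against 14.3% and 13.1%. Als2cl, a relative of the Rab5 exchange factor alsin, fell most of the named genes, from 10.5, 13.6 and 17.2 CPM in control to 2.37, 5.26 and 6.56 CPM with shRNF185.1 and 2.35, 3.05 and 4.89 CPM with shRNF185.3. Its log2 fold changes were -1.48 (SE 0.21, adjusted p 3.85e-05) and -2.07 (SE 0.22, adjusted p 1.34e-06), and neither hairpin group overlapped control. Rab3il1, an exchange factor of Rab3 and Rab8 proteins, rose from 1.79, 1.93 and 2.52 CPM to 2.59, 2.81 and 3.44 CPM and to 3.01, 3.30 and 3.78 CPM, again without overlap (0.53 and 0.72, SE 0.10 each, adjusted p 0.000755 and 3.81e-05).

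Between the hairpins 2 exchange factors were higher with shRNF185.3 (6.06%, against 7.72% of all genes) and 8 were lower (24.2%, against 6.94%). Dennd2d, which acts on Rab9, differed by -1.09 (SE 0.29, adjusted p 0.0144), and its CPM were 0.533, 0.983 and 1.45 in control, 0.853, 1.64 and 2.59 for shRNF185.1 and 0.386, 0.866 and 1.07 with shRNF185.3, so its groups overlapped. This difference was not called without batch 1 or without batch 3 (adjusted p up to 0.15).

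Of 35 tested GTPase-activating proteins, 8 were higher and 4 lower with shRNF185.1 and 3 were higher and 9 lower with shRNF185.3, with medians of 0.01 and -0.04. As shares, 22.9% were higher and 11.4% lower with shRNF185.1 (all genes 14.6% and 14.3%), and 8.57% higher and 25.7% lower with shRNF185.3 (all genes 14.2% and 13.1%). Tbc1d2, which also is an effector of Rac1 and inactivates Rab7, fell from 6.05, 7.32 and 8.94 CPM in control to 2.40, 3.59 and 4.79 CPM with shRNF185.1 and 2.74, 3.12 and 4.05 CPM with shRNF185.3. Its log2 fold changes were -0.99 and -1.16 (SE 0.15 each, adjusted p 5.68e-05 and 1.12e-05), with no overlap with control. Tbc1d8, a family member of less clear target, fell from 1.36, 1.39 and 1.91 CPM to 0.888, 1.01 and 1.22 CPM and to 0.715, 0.828 and 1.35 CPM (-0.56 and -0.64, SE 0.16 each, adjusted p 0.0123 and 0.00589). Without batch 3 both calls on Tbc1d8 were lost, and without batch 2 that with shRNF185.1, at an adjusted p of up to 0.166.

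Of 43 tested effectors, 13 were higher with each hairpin (30.2%, against 14.6% and 14.2% of all genes), while 3 were lower with shRNF185.1 (6.98%, against 14.3%) and 6 with shRNF185.3 (14.0%, against 13.1%). The medians were 0.09 and 0.06, and Tbc1d2 is counted here as well, among the lower effectors of both hairpins. Mical1, which binds Rab35 and takes actin filaments apart, rose from 0.497, 0.988 and 1.08 CPM in control to 1.88, 2.01 and 2.37 CPM with shRNF185.1 and 1.20, 1.71 and 2.02 CPM with shRNF185.3. All hairpin libraries lay above control, with log2 fold changes of 1.23 and 0.90 (SE 0.17 each, adjusted p 2.08e-05 and 0.000543). Rims2, a Rab3 effector of the release site, was at 0, 0.103 and 0.244 CPM in control, 0.0386, 0.495 and 0.799 CPM with shRNF185.1 and 0.187, 0.352 and 0.809 CPM with shRNF185.3. For Rims2 the control median lay within the range of the floor of 3 counts and the lowest shRNF185.1 library below it, with overlap of the groups. Its fitted values (2.11 and 1.84, adjusted p 0.00841 and 0.0254) therefore depend on few counts, and the call with shRNF185.3 was lost without control replicate 1, control replicate 5 or shRNF185.3 replicate 6 (adjusted p up to 0.08). The call on Rims2 with shRNF185.1 was lost without batch 1 and without batch 2 (adjusted p up to 0.0763), and that with shRNF185.3 without batch 1, without batch 3 and with libraries summed within batches (up to 0.171).

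Some members share reads with other genes. Of all windows of 75 bases, the read length, 74.16% in Rab43 transcripts and 52.5% in Rab4b transcripts also occur in another gene, as do 8.95% in Rab7 and 8.08% in Rab11b, so the values of Rab43 and Rab4b are uncertain. On the opposite strand, other genes cover 62.43% of the exonic bases of Rab24, 25.57% of Rab20, 18.99% of Rab6a, 18.68% of Rab33b and 18.64% of Rab39b. The libraries keep the strand, but whether the counting used it is not given in the sources used here.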

How the data were processed

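Polyadenylated RNA of 18 libraries was sequenced as single-end reads of 75 bases, per the labels' protocols. The submitters' processing notes name cutadapt 2.3, STAR 2.7.0d, RSEM 1.3.1 and the build mm10, while the gene annotation is not given in the sources used here. The authors deposited expected counts and CPM, both adjusted for batch by ComBat-Seq per the file names. Of the expected counts, 0.466% (3998 values in 1823 genes) are not whole, and all were rounded before testing. The deposited CPM are a normalised signal. In each library they equal the deposited counts divided by a constant, with relative differences of at most 1.0e-06. The constant was taken from the deposited CPM, so this does not show how it was computed. A batch adjustment made before deposit can narrow the spread within groups, and whether it was told the groups is not stated. It can also draw the batches together, so agreement between batches is not independent replication.

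Ensembl identifiers were paired with symbols for 99.6% of the CPM table. The 59 members, the role lists and the tests were chosen with earlier results of these data known. Counts were fitted in R 4.3.3 with edgeR 4.0.16: filterByExpr with a minimum count of 10 left 14309 genes, scaled by TMM, with a mean per group over all 18 libraries and quasi-likelihood F tests of 4 contrasts, adjusted by Benjamini-Hochberg over all genes tested. The test was also run on simulated counts of independent libraries, without batches or a batch adjustment. That run cannot check how the p-values here depend on these features. Values within a batch are differences of the mean log2 CPM. Positions and lengths are those of GENCODE M21 on GRCm38, and promoters are from RefSeq on GRCm38.p6.

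Per-library values were given for members called with both hairpins, members called between the hairpins with an absolute log2 difference of at least 0.5, and the 5 highest members in control. Genes acting on Rabs were named if called with both hairpins in 1 direction and changed by 0.5 or more on the log2 scale, or called between the hairpins with a difference of 1 or more. Libraries of 1 group differed by a chi-square per gene of 6.06 to 65.1 over 45 pairs, so none looked like a duplicate. Alternatives used DESeq2 1.42.0 and limma 3.58.1, other scalings and filters, batches and single libraries left out, and the replicate number as a block. Results on a few genes of the lists are not reported here.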

Additional observations from a re-analysis of the deposited data

Results flagged for a closer look

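In 11 of 144 sets of 6 libraries (a tested Rab in a group), 1 library stood apart from the others by Dixon's criterion, where chance gives about 1 in 20, or 7.2. In control these were Rab14 in replicate 5 (7.50 log2 CPM), Rab19 in replicate 6 (-2.90), Rab21 in replicate 6 (5.62) and Rab8a in replicate 4 (6.87). With shRNF185.1 they were Rab27a in replicate 5 (0.73), Rab40c in replicate 5 (4.98), Rab43 in replicate 5 (5.36), Rab3d in replicate 4 (3.34) and Rab5c in replicate 6 (7.67). With shRNF185.3 they were Rab5b in replicate 2 (6.45) and Rab9 in replicate 3 (5.14).

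The hairpins differed in 12 Rabs by edgeR's direct test of shRNF185.3 against shRNF185.1. The log2 differences were 0.73 for Rab21, 0.57 for Rab18, 0.46 for Rab36, 0.32 for Rab22a and 0.22 for Rab40c. They were -1.55 for Rab27a, -0.57 for Rab27b, -0.38 for Rab30, -0.27 for Rab29, -0.21 for Rab7b, -0.20 for Rab28 and -0.14 for Rab35. Their cause was not tested.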

How the results depend on the processing

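Of the 65 calls on Rabs over the 4 comparisons, 27 held under all of 13 alternatives, 50 held when any of the 18 libraries was left out, and 0 changed direction. Of 127 Rab results that were not called, 30 were called under at least 1 of the 13 alternatives and 15 without at least 1 library. The calls on Rab3b, Rab31, Rab21, Rab18 and Rab22a, and those on Rab27a, held under every one of them. The calls with 1 hairpin on Rab1a, Rab7, Rab8a, Rab10, Rab11b, Rab14, Rab20, Rab5b, Rab30, Rab33b, Rab39b and Rab2b were each lost without at least 1 of the 3 batches. So were those between the hairpins on Rab7b, Rab27b, Rab28, Rab29, Rab30, Rab35, Rab36 and Rab40c.

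The numbers of Rabs called, given as higher and lower, were 8 and 8 with shRNF185.1, 6 and 8 with shRNF185.3, 10 and 13 with the mean of both and 5 and 7 between the hairpins. Requiring an absolute log2 of at least 0.5 gave 1 and 2, 3 and 3, 2 and 1, and 2 and 2. Without batch 1, 4 were higher with shRNF185.1, 2 higher and 4 lower with shRNF185.3, 3 and 7 with the mean of both, and 3 and 1 between the hairpins. Without batch 2, 2 were lower between the hairpins. Without batch 3, 5 were lower with shRNF185.3, 6 higher with the mean of both, and 8 higher and 4 lower between the hairpins. These fits have fewer libraries. With libraries of 1 group summed within each batch, 4 were higher with shRNF185.1, 5 lower with shRNF185.3, and 6 and 8 with the mean of both. Without a filter on low counts, 5 were higher with shRNF185.1 and 5 with the mean of both, and with batch as a covariate 5 were higher with shRNF185.1. The cause was not tested.

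Leaving out 1 library gave 5 to 9 higher and 7 to 9 lower with shRNF185.1, 5 to 7 and 7 to 9 with shRNF185.3, 8 to 10 and 10 to 12 with the mean of both, and 5 to 6 and 6 to 9 between the hairpins. The 5 came without control replicate 6 and without shRNF185.1 replicate 1, 2 or 5. Adding a replicate block gave 6 and 7, 5 and 8, 9 and 10, and 6 and 6. Whether the numbers pair libraries was not settled. Between groups, the mean correlation of deviations was -0.0144 over 18 same-numbered pairs. It was lower, at -0.434, over 18 pairs of other number in the same batch, and 0.111 over 72 pairs from other batches. Of 18 libraries, 2 correlated best with their own number. Depth gives the least precision for Rab39b, Rab19, Rab17, Rab37, Rab40b and Rab42, at a control median of under 1 CPM. Rab19 with shRNF185.1, not called, was called under limma-voom, by limma on the deposited CPM, without batch 1, and without control replicate 1 or 2.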
